A study of Arabidopsis thaliana with 11 samples.

Results

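The sucrose synthase genes of Arabidopsis thaliana, SUS1 to SUS6, were chosen by their locus identifiers, and all 6 are among the 28495 genes of each of 3 deposited tables of root tip RNA. Each table sets a mutant against wild-type Col-0. The groups were crn-3 (labelled coryne-3, 2 samples), clv2-gabi (labelled clavata2-gabi, 3 samples), cle40-2 (3 samples) and Col-0 (3 samples), 11 samples in all. All 3 mutants are in the Col-0 background, and no other allele, transgene or agent is named in the labels. CRN and CLV2 encode partner proteins of a receptor complex and CLE40 a small secreted peptide, and the series title opposes CLE40 signalling to that of CRN and CLV2 in the growth of the root meristem. All seedlings grew upright at 21 °C in constant light on agar with 10 g/l sucrose, so external sugar was present in every group. The labels do not say how old the seedlings were, how much of the root was taken or what each allele does to its transcript.

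Sucrose synthase is a cytosolic enzyme that splits sucrose reversibly, with UDP, into fructose and UDP-glucose. UDP-glucose feeds the synthesis of cellulose, callose and starch, and the route costs the cell less ATP than cleavage by invertase, which hydrolyses sucrose to glucose and fructose. In Arabidopsis SUS1 and SUS4 form a pair of close relatives known to be induced by low oxygen, SUS2 and SUS3 a second pair best known from developing seeds, and SUS5 and SUS6 another pair that acts in sieve elements, where it supplies callose synthesis at sieve plates.

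The members lie at separate places in the TAIR10.1 genome. SUS1 (AT5G20830) is on chromosome 5 from 7050217 to 7055398, SUS2 (AT5G49190) on chromosome 5 from 19943181 to 19947588, and SUS3 (AT4G02280) on chromosome 4 from 994726 to 998991. SUS4 (AT3G43190) is on chromosome 3 from 15179010 to 15184105, SUS5 (AT5G37180) on chromosome 5 from 14718141 to 14723139, and SUS6 (AT1G73370) on chromosome 1 from 27584364 to 27588978. SUS3 and SUS5 are on the plus strand and the other 4 on the minus strand. The encoded proteins are alike in length for SUS1 to SUS4, with 807 to 809 residues, while SUS5 has 837 and SUS6 has 942. SUS1 and SUS4 share 89.0% of aligned residues, SUS2 and SUS3 74.7%, and SUS5 and SUS6 67.2%. Between members of different pairs the identity ran from 53.1% to 68.9%. The coding sequences of SUS1 and SUS4 are 84.5% identical, yet none of the exon windows of 50 bases of SUS1, SUS2, SUS3, SUS4 or SUS6 occurs a second time in the genome, and 99.95% of those of SUS5 are unique. Neither the read length nor the handling of reads with several matches is given in the sources used here.

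The promoter windows of the 4 members that passed the threshold in cle40-2 are shown because these genes were higher together there. Each runs 5′ to 3′ from 250 bases before the annotated gene start to 50 bases after it, read from the RefSeq TAIR10.1 genome. Capitals mark the core of the anaerobic response element (AAACCA, or TGGTTT where it lies on the other strand) and the W-box (TTGACC), the site of WRKY factors. The windows are chr5:7055349-7055648 for SUS1, chr5:19947539-19947838 for SUS2 and chr3:15184056-15184355 for SUS4, all on the minus strand, and chr4:994476-994775 on the plus strand for SUS3.
SUS1: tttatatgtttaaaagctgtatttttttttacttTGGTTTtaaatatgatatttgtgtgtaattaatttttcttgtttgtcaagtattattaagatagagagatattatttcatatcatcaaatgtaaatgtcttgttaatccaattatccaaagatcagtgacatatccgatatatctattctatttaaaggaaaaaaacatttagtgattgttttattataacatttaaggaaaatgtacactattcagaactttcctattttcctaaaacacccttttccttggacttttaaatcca
SUS4: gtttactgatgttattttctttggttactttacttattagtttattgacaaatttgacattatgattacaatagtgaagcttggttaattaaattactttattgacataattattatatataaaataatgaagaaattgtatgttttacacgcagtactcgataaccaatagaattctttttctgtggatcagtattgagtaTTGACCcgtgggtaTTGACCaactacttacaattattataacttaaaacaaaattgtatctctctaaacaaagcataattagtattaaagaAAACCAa
SUS2: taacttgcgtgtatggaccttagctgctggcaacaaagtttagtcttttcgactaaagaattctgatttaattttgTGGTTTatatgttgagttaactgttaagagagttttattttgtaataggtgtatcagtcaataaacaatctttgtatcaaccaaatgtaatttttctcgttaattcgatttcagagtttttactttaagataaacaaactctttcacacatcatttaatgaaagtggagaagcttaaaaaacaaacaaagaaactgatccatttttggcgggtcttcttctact
SUS3: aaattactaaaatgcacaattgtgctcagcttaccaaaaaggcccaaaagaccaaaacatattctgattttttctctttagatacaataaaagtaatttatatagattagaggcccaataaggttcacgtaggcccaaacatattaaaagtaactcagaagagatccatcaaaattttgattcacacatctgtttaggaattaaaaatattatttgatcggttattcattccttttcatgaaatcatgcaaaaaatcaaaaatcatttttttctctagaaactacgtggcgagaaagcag

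Few matches were found in these windows. AAACCA or its reverse complement occurred once each in the windows of SUS1 (at position -216, counted at the leftmost base of the match with -1 as the last base before the gene start), SUS2 (at -174) and SUS4 (at 44, after the start). It occurred 2 times in that of SUS5 and not in those of SUS3 and SUS6, against 32.0% of the windows of 27443 protein-coding genes with at least 1 match. SUS4 held TTGACC at -48 and -34, against 14.2% of all windows with a match, and no other member held these 6 letters on either strand. Since other forms of the W-box were not searched, this does not show that the other members lack a W-box. The G-box CACGTG occurred in none of the 6, against 7.68% of all windows. No motif overlapped another in these 6 windows. The window of SUS2 shares 150 bases with the neighbouring gene AT5G49200, and that of SUS6 shares 214 with AT1G73380. A match of these letters is a description of the window and not a site of binding.

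Means (normalised read counts per group), fold changes and adjusted p-values given below for a gene come from the authors' deposited tables. These give 1 value per group and none per sample. The spread between samples, the depth per sample and the overlap of groups are therefore unknown, and no error can be given for a mean. The labels do not say whether the samples of a group came from separate plants, so the spread behind the authors' p-values is that between samples and may be technical. All 3 comparisons share the Col-0 samples, and levels are set against Col-0 inside each table. The tissue label was checked against 8 markers of root meristem and root cap: all were above 0 in every group, and their means summed to 6472, 6784 and 6577 in crn-3, clv2-gabi and cle40-2, against 5839, 6297 and 6327 in Col-0 of the same authors' deposited tables. No marker of these 8 passed the threshold in any mutant, with fold changes from 0.89 to 2.21. The transcript of the mutated gene was not lower in any mutant: per the authors' deposited tables CRN had a mean of 111 in crn-3, against 91 in Col-0, CLV2 4248 in clv2-gabi, against 198 in Col-0 (21.44-fold, adjusted p that rounds to 0), and CLE40 3 in cle40-2, against 1 in Col-0. The CRN and CLE40 values give no check of the labels. The CLV2 value differs at the gene that the clv2-gabi label names, but the effect of that allele on its transcript is not given. The group names and each direction below therefore rest on the labels. The RNA is from whole root tips, so more cells that express a gene and more RNA per cell cannot be told apart.

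SUS3 was the most abundant member in every group. Divided by the length of the longest annotated transcript, its level was 349 normalised reads per kb in cle40-2 and 187 in Col-0, computed from the authors' deposited table of cle40-2. SUS1 followed with 105 in cle40-2 and 50.4 in Col-0 on the same scale. In Col-0 the levels per kb were then 34.7 for SUS6, 30.6 for SUS2, 8.11 for SUS5 and 1.04 for SUS4. The order of SUS6 and SUS2 was reversed in cle40-2, with 30.4 for SUS6 and 53.8 for SUS2, and SUS4 at 16.6 lay above SUS5 at 9.52. In crn-3 the order was that of Col-0, and in clv2-gabi SUS2 at 32.2 and SUS6 at 32.1 were nearly level. With no value per sample, it cannot be said which neighbours in this order differ beyond their spread. In Col-0 SUS3 made up 60.0% of the summed family level per kb and SUS1 16.2% in the cle40-2 table.

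**Figure D1:**
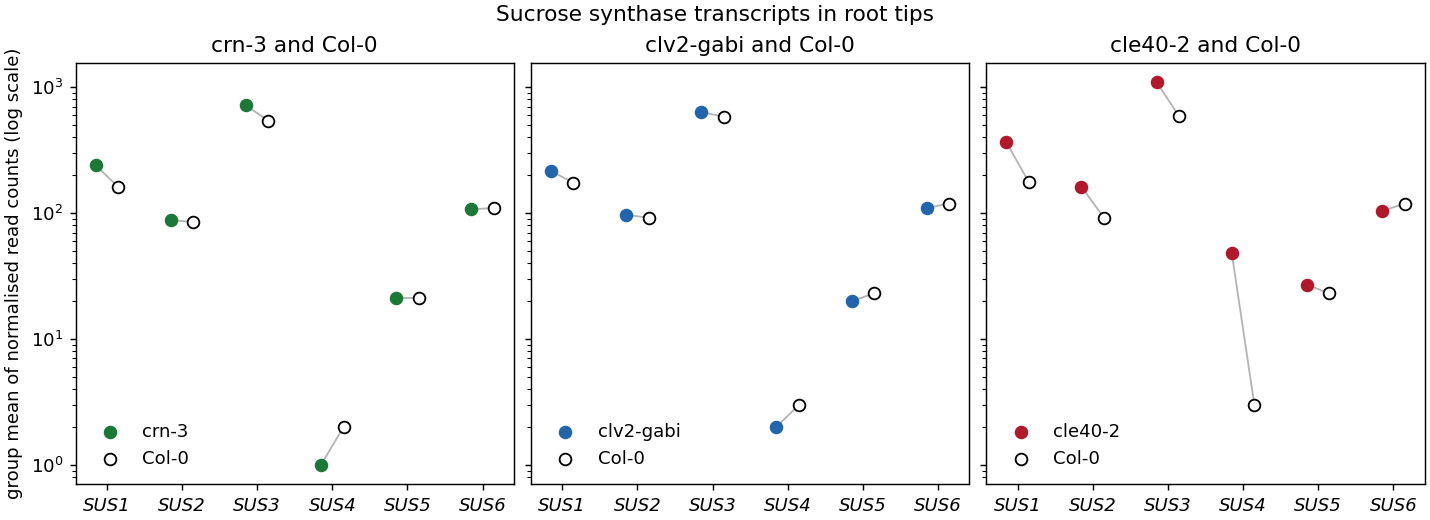
Group means of normalised read counts (log scale) of SUS1 to SUS6 in each mutant (filled) and in Col-0 of the same deposited table (open), with no error bars because the tables hold no value per sample. SUS4 stands at 48 in cle40-2 against 3 in Col-0, while SUS5 and SUS6 lie close to Col-0 in all 3 panels.

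Root tips of cle40-2 had more transcript of 4 of the 6 genes. SUS1, SUS2, SUS3 and SUS4 rose in cle40-2, SUS5 and SUS6 did not pass the threshold, and no member fell. The threshold throughout is an adjusted p under 0.05 in the authors' deposited tables. At that threshold 5.15% of the 23602 genes tested in cle40-2 were called, 3.21% as higher and 1.94% as lower. The family was proposed with the cle40-2 values of SUS1 and SUS4 in view, so these values are a description, and the count of 4 supports nothing further. The median fold change of the 6 was 1.815, beside 1 over the 22207 genes with a finite fold change. At an adjusted p under 0.01 the count was 3 members, without SUS2, beside 3.53% of all genes. It was also 3, without SUS4, where a group mean of 50 or more was asked as well, beside 4.04%, and 2, SUS1 and SUS4, where a size of 2-fold was asked as well, beside 2.87%.

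SUS4, which is known to be induced by low oxygen, had the largest fold change of the family in cle40-2. Its mean was 48 in cle40-2, against 3 in Col-0 samples, as given in the authors' deposited table. The fold change there was 18.98, with an adjusted p that rounds to 0. The authors took this ratio before rounding, and it implies an unrounded Col-0 mean of 2.53, so the ratio rests on a very low Col-0 level. In the authors' deposited tables of the other mutants the mean of SUS4 was 1 in crn-3, against 2 in Col-0 (0.61-fold, adjusted p of 1), and 2 in clv2-gabi, against 3 in Col-0 (0.82-fold, adjusted p of 1). The central 95% of fold changes of the 500 genes nearest in mean to SUS4 ran from 0.43 to 6.08 in cle40-2, from 0.17 to 4.25 in crn-3 and from 0.22 to 3.98 in clv2-gabi. SUS4 lay above that range in cle40-2 and inside it in the other mutants. For every member, nearness was taken on the average of the mutant and Col-0 means. The raised cle40-2 mean of SUS4 thus set it among genes of a higher level there than in the other mutants. Its 3 ranges are therefore not like for like, and that in cle40-2 is not one of genes at its Col-0 level.

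SUS1, the close relative of SUS4, started from a much higher level. Its mean was 367 in cle40-2, against 176 in Col-0 samples, as given in the authors' deposited table (fold change 2.09, adjusted p that rounds to 0). In crn-3 it was 240, against 162 in Col-0 (1.48-fold, adjusted p = 0.823), and in clv2-gabi 215, against 175 in Col-0 (1.23-fold, adjusted p of 1), in the authors' deposited tables. Its fold change in crn-3 did not pass the threshold, although it lay above the central 95% of the 500 genes nearest in mean, which ran from 0.74 to 1.23. That range was 0.71 to 1.45 in cle40-2, where SUS1 lay above it, and 0.66 to 1.32 in clv2-gabi, where it lay inside.

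SUS3, of the pair known from seeds, gave the largest difference in reads. Its mean was 1097 in cle40-2, against 588 in Col-0 samples, as given in the authors' deposited table (fold change 1.87, adjusted p that rounds to 0). In crn-3 it was 717, against 543 in Col-0 (1.32-fold, adjusted p of 1), and in clv2-gabi 634, against 585 in Col-0 (1.08-fold, adjusted p of 1), in the authors' deposited tables. As for SUS1, the crn-3 value of SUS3 was not called but lay above the central 95% of genes near in mean (0.82 to 1.19). The range was 0.74 to 1.29 in cle40-2, with SUS3 above it, and 0.81 to 1.22 in clv2-gabi, with SUS3 inside.

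SUS2, the partner of SUS3, passed in cle40-2 by less. Its mean was 162 in cle40-2, against 92 in Col-0 samples, as given in the authors' deposited table (fold change 1.76, adjusted p = 0.035). It lay inside the central 95% of fold changes of genes near in mean there, which ran from 0.54 to 2.68. SUS2 was at 88 in crn-3, against 85 in Col-0 (1.03-fold), and at 97 in clv2-gabi, against 92 in Col-0 (1.06-fold), each with an adjusted p of 1 in the authors' deposited tables.

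The sieve element members stayed near Col-0. SUS5 had means of 21 in crn-3, against 21 in Col-0 (0.99-fold), of 20 in clv2-gabi, against 23 in Col-0 (0.88-fold), and of 27 in cle40-2, against 23 in Col-0 (1.18-fold), in the authors' deposited tables, with an adjusted p of 1 each. SUS6 had means of 107 in crn-3, against 110 in Col-0 (0.98-fold), of 110 in clv2-gabi, against 119 in Col-0 (0.92-fold), and of 104 in cle40-2, against 119 in Col-0 (0.87-fold), in the authors' deposited tables, with adjusted p-values of 1, 1 and 0.981. A p that misses the threshold does not show that these genes were equal to Col-0, and the central 95% of genes near SUS5 in mean was wide in cle40-2, from 0.43 to 6.35.

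**Figure D2:**
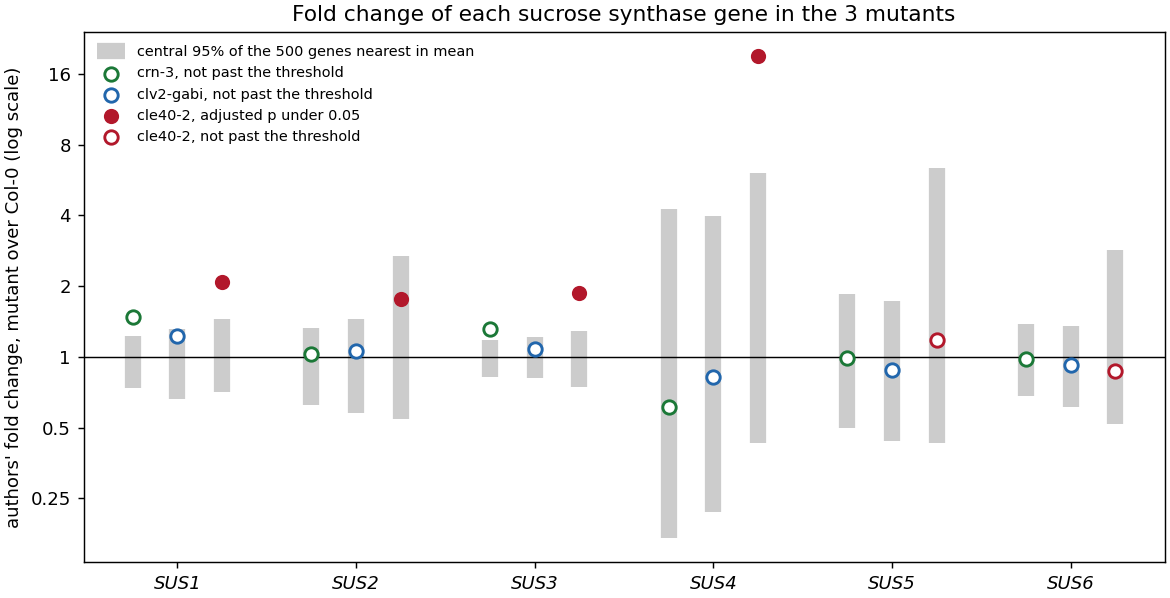
Authors' fold change of each sucrose synthase gene over Col-0 (log scale) in crn-3, clv2-gabi and cle40-2, filled where the adjusted p is under 0.05. Grey bars span the central 95% of the 500 genes nearest in mean in the same comparison, and SUS1, SUS3 and SUS4 in cle40-2 and SUS1 and SUS3 in crn-3 lie above them.

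None of the 6 genes passed in crn-3 or clv2-gabi. In crn-3 0.439% of 22793 genes were called, 0.189% as higher and 0.25% as lower. In clv2-gabi 1.89% of 22987 genes were called, 0.3% as higher and 1.59% as lower, so few genes of any kind were called as higher in either. The adjusted p-values of the members ran from 0.823 to 1 in crn-3 and were all 1 in clv2-gabi in the authors' deposited tables. The tables hold no unadjusted p, and no other tool could be run on them. The median fold change of the 6 was 1.01 in crn-3 and 0.99 in clv2-gabi, beside 1 over all genes with a finite fold change in each. Since crn-3 has 2 samples and the other mutants 3, the tests are not equally sensitive. Whether the response of a member differs between mutants was not tested, because the tables give no value per sample.

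Summed per kb of transcript, the family reached 565 in cle40-2, against 312 in Col-0, a ratio of 1.81 computed from the means of the authors' deposited table. The same sums were 365 in crn-3, against 288 in Col-0 (ratio 1.27), and 335 in clv2-gabi, against 311 in Col-0 (ratio 1.08). SUS3 made up 64.1% of the difference between cle40-2 and Col-0, SUS1 21.7%, SUS2 9.20% and SUS4 6.16%. The member with the largest fold change thus added little to the sum, and SUS3 with a fold change under 2 added most. SUS3 held the largest share in both groups, 61.8% in cle40-2 and 60.0% in Col-0, followed by SUS1 with 18.6% in cle40-2 and 16.2% in Col-0. The share of SUS6 was 5.38% in cle40-2 and 11.1% in Col-0, and that of SUS4 was 2.94% in cle40-2 and 0.333% in Col-0. These sums carry no error, since the tables give means only.

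**Figure D3:**
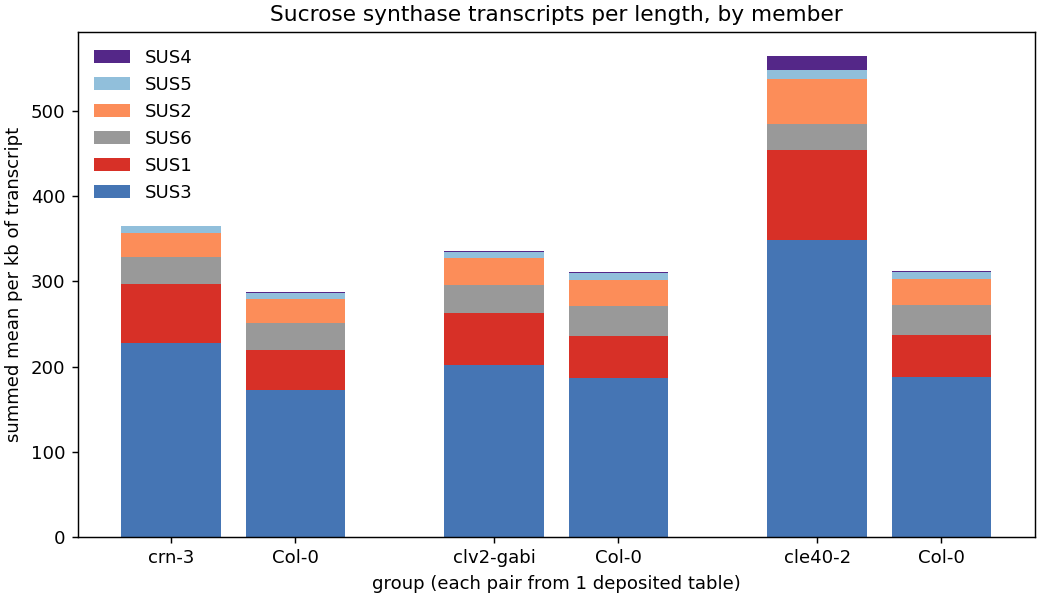
Means of the 6 genes per kb of the longest annotated transcript, stacked, for each mutant and for Col-0 of the same deposited table. The cle40-2 column reaches 565, against 312 in Col-0, and SUS3 is the largest block in all 6 columns.

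The rest of the sucrose pathway was read from a list of 46 genes of invertases, sucrose synthesis, UDP-glucose pyrophosphorylases, hexose kinases and sucrose carriers. In cle40-2 3 rose and 1 fell among the 43 with an adjusted p, beside 5.15% of all genes. In clv2-gabi 1 of 40 rose, beside 0.3% of all genes called as higher. In crn-3 none of 35 passed, beside 0.439% of all genes. The lists were drawn up with results of these data known.

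The listed genes of enzymes that compete with sucrose synthase for sucrose were mostly near Col-0 in cle40-2. The cytosolic invertase genes read here were CINV1 and CINV2 only. They had fold changes of 0.96 and 1.06 and adjusted p-values of 1 in the authors' deposited table, and neither was called in the other mutants. Over all genes tested in cle40-2, 1.94% were called as lower. Of 8 genes of cell wall and vacuolar invertases, all with an adjusted p in cle40-2, 1 fell. It was FRUCT5 (AT1G55120), an invertase relative that acts as a fructan exohydrolase, with a mean of 170 in cle40-2, against 288 in Col-0 samples, as given in the authors' deposited table (fold change 0.59, adjusted p = 0.005). The summed mean of these 8 genes was 23653 in cle40-2, against 24317 in Col-0 samples, as given in the authors' deposited table.

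On the synthesis side 1 of 8 genes of sucrose phosphate synthases and phosphatases rose in cle40-2, beside 3.21% of all genes called as higher. SPS3F (AT1G04920), a sucrose phosphate synthase gene, had a mean of 21 in cle40-2, against 5 in Col-0 samples, as given in the authors' deposited table (fold change 3.96, adjusted p = 0.019). The other 7 had fold changes from 0.99 to 1.15 there.

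The genes that take up the products of the enzyme were mostly near Col-0 as well. Neither UDP-glucose pyrophosphorylase gene passed in any mutant, with UGP2 at 0.73-fold in cle40-2 root tips, per the authors' deposited table (adjusted p = 0.06). Over all genes tested, 3.21% were called as higher in cle40-2 and 0.3% in clv2-gabi. Among 7 genes of the fructokinase list, 6 of them with an adjusted p, AT3G59480, which encodes a sugar kinase of the pfkB type, rose in cle40-2 and in clv2-gabi. Its mean was 103 in cle40-2, against 55 in Col-0 (1.85-fold, adjusted p = 0.026), and 97 in clv2-gabi, against 55 in Col-0 (1.76-fold, adjusted p = 0.037), in the authors' deposited tables. In crn-3 it was at 57, against 51 in Col-0 samples, as given in the authors' deposited table (fold change 1.1, adjusted p of 1). None of 6 hexokinase genes passed in any mutant, where 5 had an adjusted p in crn-3 and in cle40-2 and 6 in clv2-gabi. Their finite fold changes in cle40-2 ran from 0.83 to 1.13. Of 7 cellulose and callose synthase genes, users of UDP-glucose, none passed in cle40-2 or crn-3. In clv2-gabi CESA8 (AT4G18780, listed as IRX1), a cellulose synthase gene of secondary walls, fell to a mean of 5, against 19 in Col-0 samples, as given in the authors' deposited table (fold change 0.28, adjusted p = 0.028). Over all genes tested in clv2-gabi, 1.59% were called as lower.

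Among 13 sucrose carrier genes, 12 of them with an adjusted p in cle40-2, 1 rose there, beside 3.21% of all genes called as higher. It was SWEET12 (AT5G23660), which exports sucrose to the phloem of leaves. Its mean was 18 in cle40-2 and the authors' deposited table lists it at 0 in Col-0, with an adjusted p that rounds to 0. The companion cell carrier gene SUC2 was at 12 in cle40-2, against 14 in Col-0 samples, as given in the authors' deposited table (fold change 0.89, adjusted p of 1).

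Low-oxygen genes other than sucrose synthases were read because SUS1 and SUS4 belong to that response. Of 9 such genes 1 rose in cle40-2, the pyruvate decarboxylase gene AT4G33070, with a mean of 565 in cle40-2, against 342 in Col-0 samples, as given in the authors' deposited table (fold change 1.65, adjusted p = 0.001). Beside this count, 3.21% of all genes tested were called as higher in cle40-2. ADH1, the alcohol dehydrogenase of fermentation, had a mean of 36 in cle40-2, against 16 in Col-0 samples, per the authors' deposited table (fold change 2.28, adjusted p = 0.087). The haemoglobin gene HB1 was at 247 in cle40-2, against 248 in Col-0, and LBD41, a low-oxygen transcription factor gene, at 12 in cle40-2, against 18 in Col-0 samples, per the authors' deposited table (adjusted p of 1 and 0.812). The median fold change of the 9 genes was 0.88 in cle40-2, and none passed in crn-3 or clv2-gabi.

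**Figure D4:**
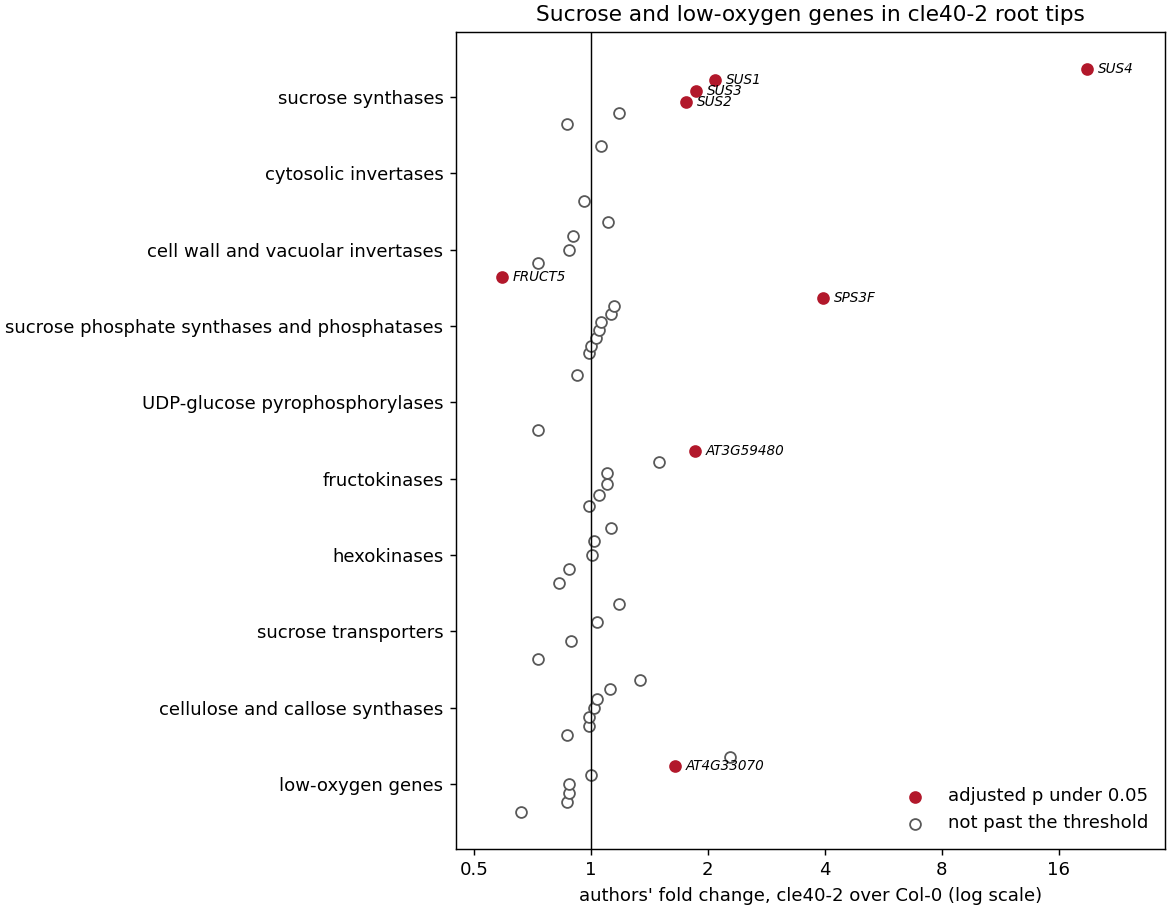
Authors' fold change in cle40-2 over Col-0 (log scale) for genes of sucrose metabolism and of the low-oxygen response, by list, where the higher mean is at least 5 and the fold change is finite. SUS1 to SUS4 lie at 1.76 to 18.98, and FRUCT5 at 0.59 is the called gene to the left of 1.

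Markers of other tissues also differed between cle40-2 and Col-0. The shares of all genes called as higher, beside which the counts below stand, were 3.21% in cle40-2, 0.189% in crn-3 and 0.3% in clv2-gabi. Of 12 nuclear photosynthesis genes 10 rose in cle40-2, and their means summed to 1753 in cle40-2, against 141 in Col-0 samples, as given in the authors' deposited table. Among the 10 were the Rubisco small subunit genes RBCS1A and RBCS1B and the light-harvesting gene LHCA2, with means of 54, 43 and 60 in cle40-2 and each listed at 0 in Col-0, and the light-harvesting gene LHB1B1, at 578 in cle40-2, against 1 in Col-0. Per the authors' deposited tables the sums were 132 in crn-3, against 132 in Col-0, and 184 in clv2-gabi, against 141 in Col-0. Of 10 seed storage protein and oleosin genes, 5 of them with an adjusted p in cle40-2, 3 rose there. The means of the 10 summed to 500 in cle40-2, against 3 in Col-0 samples, as given in the authors' deposited table. The called seed genes encode cruciferins: CRU3 had 383 and CRA1 67 in cle40-2 and both are listed at 0 in Col-0 there, and CRU2 had 48 in cle40-2, against 2 in Col-0, while SESA1, SESA2, SESA3, SESA4 and OLEO2 are listed at 0 in every group. Per the authors' deposited tables the seed sums were 15 in crn-3, against 3 in Col-0, and 4 in clv2-gabi, against 3 in Col-0. In crn-3 CRU3 was the 1 called gene of 3 with an adjusted p, and in clv2-gabi none of 4 was called. Of 12 phloem markers 1 rose in cle40-2, the proton pump gene HA3 (AT5G57350), with a mean of 206, against 82 in Col-0 (2.51-fold), and the list summed to 1216 in cle40-2, against 961 in Col-0 samples, as given in the authors' deposited table. The median fold change of the 12 phloem markers was 1.005 in cle40-2, with a range from 0.51 to 2.51. The part of these tissues in the higher SUS1 to SUS4 means was not tested.

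The genes around each member were examined because a change that covers a stretch of chromosome would include them. Called in cle40-2 were 0% of the 20 neighbours of SUS1 and of SUS5, 5% around SUS2 and SUS6, and 10% around SUS3 and SUS4. The share called over all genes tested in cle40-2 was 5.15%. Of the 20 genes with an adjusted p nearest to SUS4, over 555 kb of chromosome 3, none rose in cle40-2 and 2 were lower, and their median finite fold change was 1.01. The lower neighbours were AT3G43110, at 38 in cle40-2 against 77 in Col-0 (0.49-fold, adjusted p = 0.01), and the RING protein gene AT3G43430, at 102 in cle40-2 against 160 in Col-0 (0.64-fold, adjusted p = 0.049), in the authors' deposited table. Among the 20 neighbours of SUS1 not a single gene passed in cle40-2. Around SUS2 1 of 20 rose, the MATE transporter gene AT5G49130 (1.84-fold, adjusted p = 0.005), and around SUS3 PARP2, a DNA repair gene, rose (2.05-fold, adjusted p that rounds to 0) and AT4G02360 fell (0.42-fold, adjusted p = 0.008), in the authors' deposited table. No gene among the 20 around SUS5 passed, and around SUS6 1 fell, scpl3, a serine carboxypeptidase-like gene (0.37-fold, adjusted p that rounds to 0, per the authors' deposited table). In crn-3 and clv2-gabi the 1 called neighbour of any member was SHV2 (AT5G49270), a gene of root hair growth near SUS2, with fold changes of 0.56 in crn-3 and 0.41 in clv2-gabi, both lower than Col-0, per the authors' deposited tables. The shares called over all genes tested were 0.439% in crn-3 and 1.89% in clv2-gabi. The called neighbours of SUS2, SUS3 and SUS6 all lay beyond the 5 nearest genes on their side.

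**Figure D5:**
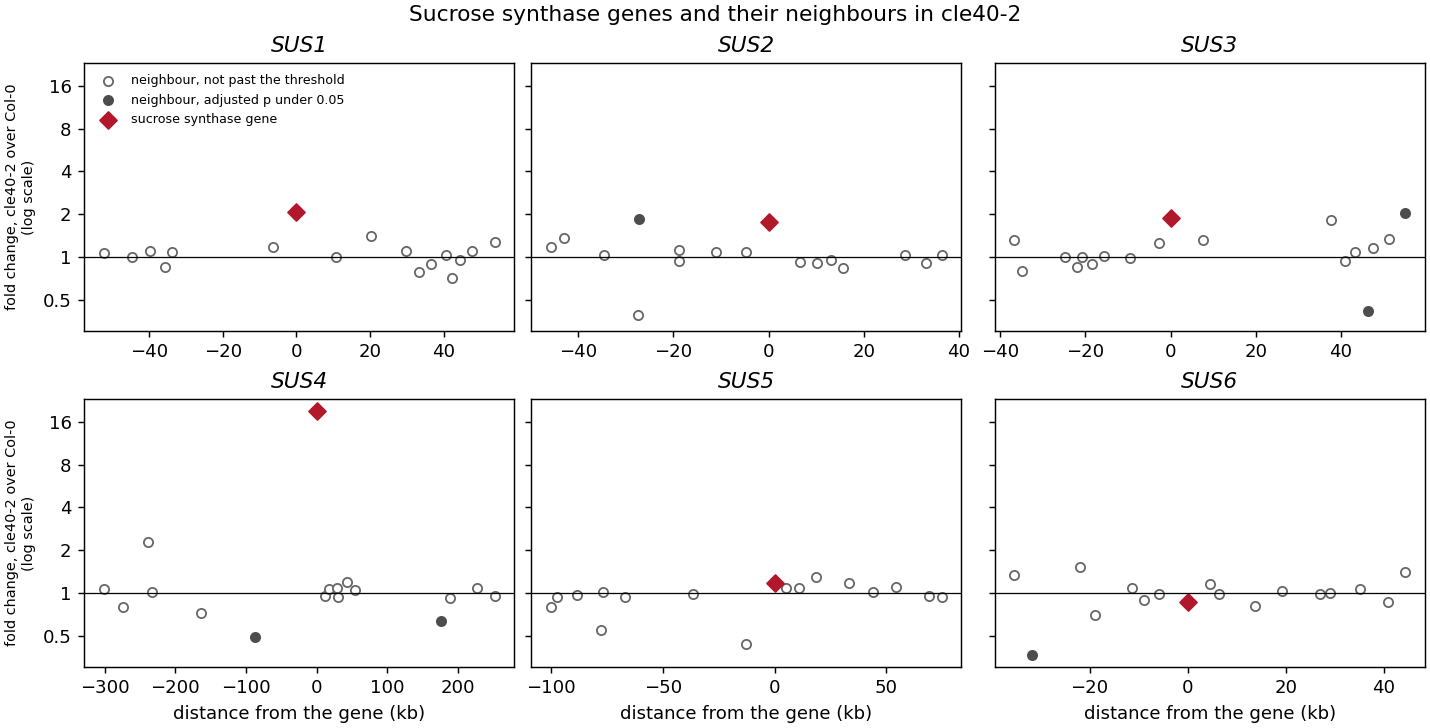
Authors' fold change in cle40-2 over Col-0 (log scale) of each sucrose synthase gene (diamond) and of its 10 nearest genes on each side with an adjusted p. Distance in kb is between the lower chromosome coordinates of the genes, whatever their strand. Shown are genes whose higher mean is at least 5 and whose fold change is finite. SUS4 at 18.98 has neighbours from 0.49 to 2.28.

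The genes most like SUS4 and SUS1 across the 3 comparisons were sought among 16278 genes whose higher group mean in the cle40-2 table was 50 or more, by the distance between their 3 log2 changes (with 1 added to each mean). The comparisons share their Col-0 samples, so likeness is only a description over 3 values. The minimum admits a gene with a Col-0 mean as low as that of SUS4 solely where it is far higher in cle40-2, and SUS4 itself at 48 lies under it, so the genes found near SUS4 follow in part from this minimum. Nearest to SUS4 were AT3G63320, a protein phosphatase 2C gene (distance 0.34, with 18.08-fold in cle40-2), GH3.9, of the auxin-conjugating GH3 family (0.48, 11.99-fold), and LHB1B2, a light-harvesting gene (0.50, 12.6-fold), in the authors' deposited table. AT1G52315 (0.83, 10.17-fold) and the light-harvesting gene CAB3 (0.86, 12.23-fold) followed there. Of the windows of 50 bases of LHB1B2 82.7% were unique in the genome and of CAB3 89.4%, with a window length chosen here because the read length is unknown. Nearest to SUS1 were AT3G60730, annotated as a pectin methylesterase or inhibitor family gene (distance 0.15, 2.29-fold in cle40-2), EXL2, of the EXORDIUM-like family (0.18, 1.97-fold), and the glycosyltransferase gene AT3G46690 (0.20, 2.1-fold), in the authors' deposited table. AT2G07727, annotated as cytochrome b and without a unique window (0.22, 2.15-fold), and FNR1, a leaf ferredoxin reductase gene (0.22, 1.98-fold), completed the 5. Of these 5, AT3G60730 (105 in cle40-2, against 46 in Col-0) and AT3G46690 (78, against 37) passed the minimum only through cle40-2. Their place near SUS1 therefore also follows in part from this minimum.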

How the data were processed

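Root tip RNA of 11 samples was sequenced, and 3 tables of the authors' comparisons were used. CASAVA 1.8.2, DESeq (no version) and genome build TAIR10 are named in the submitters' processing notes. No aligner, counter, strand setting or annotation is given in the sources used here. Per-group values were handled as scores, because the authors deposited means of normalised read counts that had been rounded to whole numbers, and no count model could be run. The fold change was deposited as a ratio to 2 decimals and the adjusted p-value to 3 decimals, as read from the values, with the method of adjustment not stated. Col-0 means in the clv2-gabi and cle40-2 tables were 1.08 times those in the crn-3 table. Of the identifiers, 28008 matched TAIR10.1 and 487 did not.

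A gene was called at the authors' adjusted p under 0.05. Levels per kb, ranges of the 500 genes nearest in mean, neighbours, promoter windows and unique windows were computed in Python 3.11.15 with pandas 2.3.3 and Biopython 1.88, and the functions were tested on made-up tables. Log2 changes added 1 to each mean. Sequences and coordinates are those of RefSeq TAIR10.1. The members and lists were chosen with earlier results of these data known. Named were all 6 members, every called member of a list up to 4 per list and mutant, called genes among 10 neighbours on each side, and the 5 genes most like SUS4 and SUS1, with members set beside these for contrast. Other settings tried were another threshold, a minimum mean or fold, other pseudocounts and scalings, and other lengths and numbers of neighbours. Photosynthesis genes past 4 calls are given as a count.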

Additional observations from a re-analysis of the deposited data

How the results depend on the processing

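The order of the 6 genes by level in Col-0 was the same per base of the longest transcript, per base of the mean transcript and without a length correction. With an adjusted p under 0.01, SUS2 was no longer called in cle40-2, leaving 3 genes, and when the higher group mean also had to reach 50 SUS4 was not, also leaving 3. With a size of at least 2-fold as well as an adjusted p under 0.05, 2 genes were left, SUS1 and SUS4, since the fold changes of SUS2 and SUS3 lie under 2. No member was called in crn-3 or clv2-gabi under any of these settings. Of 90 log2 changes recomputed under 5 settings of pseudocount, scaling and Col-0 value, 89 moved by less than the robust spread of genes near in mean, and no called gene changed direction. The other was SUS4 in cle40-2, whose log2 change of 3.61 became 2.73 when 5 instead of 1 was added to each mean, since its Col-0 mean is low. The Col-0 setting could move little beyond rounding, because the 3 tables share the Col-0 samples. Rescaling to equal sums could also move little. The log2 ratio of summed means, mutant over Col-0, was -0.0135 in crn-3, -0.0394 in clv2-gabi and -0.0372 in cle40-2. With 5 instead of 10 genes on each side, the called neighbours of SUS2 (in all 3 mutants), SUS3 and SUS6 (in cle40-2) lay outside the range and their percent called became 0, from 5, 10 and 5, while around SUS4 10 percent were called in cle40-2 with either number. No paired analysis was possible because the tables hold group means and no value per sample, and leaving out a replicate was not run for the same reason. Whether the mean of 48 of SUS4 in cle40-2, or any other mean, rests on 1 library is unknown.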

Other observations

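Ordered by the authors' fold change in the deposited table of crn-3, from the highest, SUS1 was at rank 164 and SUS3 at rank 363 of 17402 genes whose higher group mean was 20 or more and whose fold change was finite. SUS2, SUS5 and SUS6 were at ranks 6340, 9110 and 9827 in crn-3, and SUS4 lay under the minimum mean. In the clv2-gabi table SUS1, SUS3, SUS2, SUS6 and SUS5 were at ranks 805, 4268, 5293, 13611 and 14976 of 17469 genes. None of the 6 was called in either mutant.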
